A study of Rattus norvegicus with 13 samples.

Results

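A set of 10 genes of phagocytic and lipid-handling microglia was followed across the frontal cortex of rats 1 month after head trauma: Lgals3, Gpnmb, Spp1, Lpl, Apoe, Cst7, Ch25h, Abca1, Itgax and Axl. Its members were the array probes that carry 1 of these 10 gene names, which gave 11 probes, with 2 for Axl. All 10 genes had a probe, and 9 passed the filter on dim signal described below, of 17244 genes tested in all. The member without a measured level was Itgax.

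The animals were male Sprague-Dawley rats, whose age is not given in the sources used here. Rats of the rotational group received a head acceleration rotational injury (3 arrays) and had their own sham group (3 arrays). Rats of the percussion group received a lateral fluid percussion injury (3 arrays) and had a separate sham group (4 arrays). Sham rats went through the anesthesia and the whole operation without the trauma. All 4 groups thus had anesthesia and an operation, but a sham group shares its operation only with the trauma group of its own model. A difference between the models therefore also holds any difference between their operations. The labels name no transgene or drug. Total RNA of the whole tissue was hybridised to 1-colour Agilent arrays, 1 rat sample per array.

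When microglia take up dying cells and myelin they turn on a shared set of genes for engulfment, lysosomal digestion and the handling of the lipid that results. The program depends on the receptor TREM2 and its adaptor TYROBP. Cholesterol from digested myelin is oxidised to sterols that activate the liver X receptors, which in turn raise ABCA1 and APOE, the transporter and the carrier by which cells pass cholesterol on. In injured brain the same genes are also used by macrophages that enter from the blood or the meninges, and APOE is made largely by astrocytes. In RNA of whole tissue, fewer cells of a type and less RNA per cell cannot be told apart.

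The probes read short stretches of the transcripts, and those of the members that the results turn on are shown by their first 30 of 60 bases, 5′ to 3′, with the probe's position on rat build rn4. Both probes of Axl are shown because only 1 was bright enough to be tested; its span in the genome is longer than the probe, so its bases lie in more than 1 exon.
Lgals3 at chr15:23338947-23339006, plus strand: atttctctctccttatacttcttgtaagac
Gpnmb at chr4:77182198-77182257, plus strand: gtgagctgtgcagaagtacatgactggtag
Ch25h at chr1:238457456-238457515, minus strand: cctgtgtgccggcagtgagagctgcttgga
Abca1 at chr5:70493613-70493672, minus strand: ggaccaaagtgatgatgaccacttaaagga
Axl, tested probe, at chr1:80967569-80969294, minus strand: ggaactgcatgctgaatgagaacatgtccg
Axl, dim probe, at chr1:80964817-80964876, minus strand: tgtctcactgcagctgacgtccactcagct

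The level of a gene is given as scaled log2 signal, the log2 of the scanner's processed signal minus the upper quartile of its array, so 0 is the brightness of the spot at the 75th percentile. Levels of different probes cannot be set against each other, because probes differ in how they bind. A probe was tested where some group had all of the probe's spots well above background on each of its arrays. Between 67.0% and 74.1% of the spots of an array were well above background, and no spot was saturated. Differences are trauma minus the sham group of the same model, with the SE and the adjusted p of limma, a linear model with a spread estimate shared across genes and Benjamini-Hochberg adjustment over all genes.

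Each model had 1 slide, with its arrays in 2 lines. On the rotational slide the sham arrays lay in line 1 and the trauma arrays in line 2, and on the percussion slide the order was the opposite. Lines differed most for dim probes: over 10355 probes dropped as dim, the median of line 2 minus line 1 was 0.58 on the rotational slide and 0.78 on the percussion slide. Of these dim probes, 70.0% were brighter in line 2 on both slides. Over the genes tested the medians were -0.03 and -0.01. If the line effect had 1 size on both slides, it would drop out of the average of the models. In the difference between the models the line effects of both slides would add up.

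No member passed an adjusted p of 0.05 in limma. In rotational trauma 0 of 9 members passed, where 0.0116% of all genes did. In percussion trauma, in the mean of both models and in the difference between the models 0 of 9 passed, and over all genes the share was 0 in each. At an unadjusted p under 0.05, 1 of 9 members was higher in rotational trauma, against 2.85% of all genes. In percussion trauma 4 of 9 members were higher at that threshold, against 7.52% of all genes, and in the mean of both models 4 of 9, against 5.1%. The 4 in the mean were Lgals3, Gpnmb, Ch25h and Abca1, of which Abca1 was below 0 in rotational trauma (-0.21). With no filter on dim probes, 3 members passed in percussion trauma: Lgals3 (adjusted p 0.0208), Gpnmb (0.0446) and Abca1 (0.0108). In that setting 2979 of 26257 genes passed, dim probes with the line difference above included. In the difference, percussion minus rotational, 2 of 9 were higher at an unadjusted p under 0.05, against 6.58% of all genes, and 0 lower, against 1.98%. None was lower at that threshold in either model or in their mean, against 4.01% of all genes in rotational trauma, 3.76% in percussion trauma and 3.82% in the mean of both models.

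The direction was mostly upward. The difference was above 0 for 6 of 9 members in rotational trauma, where 39.8% of all genes were above 0, and for 8 of 9 in percussion trauma, against 52.7%. In the mean of both models 8 of 9 were above 0, against 45.3%, and in the difference between the models 6 of 9, against 57.6%. The median of the 9 members was 0.10 in rotational trauma and 0.43 in percussion trauma, and over all genes it was -0.03 and 0.01. With single arrays left out the rotational median ran from 0.02, without trauma array 1, to 0.34, without sham array 1. The members that passed the filter are not a random draw of genes, and these counts describe them without a test. Every trauma array lay above every sham array for 1 of 9 members in rotational trauma (4.86% of all genes), for 5 of 9 in percussion trauma (5.9%) and for 1 of 9 in both models at once (0.557%). Every trauma array lay below every sham array for 0 of 9 members in rotational trauma (10.6% of all genes), in percussion trauma (3.83%) and in both models (0.273%).

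**Figure D1:**
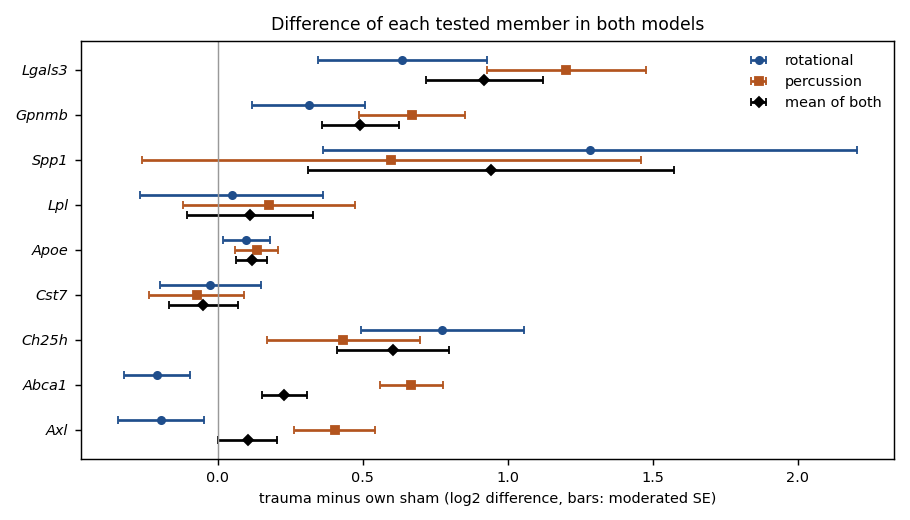
Difference of each of the 9 tested members, trauma minus own sham on the log2 scale (x axis), in rotational trauma, in percussion trauma and in the mean of both; bars are the SE of the moderated fit. Lgals3 lies above 0 in both models, at 0.64 and 1.20, while Abca1 lies at -0.21 in rotational and 0.67 in percussion trauma.

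Lgals3 encodes galectin-3, a lectin that binds sugar chains and marks phagocytic microglia and damaged lysosomes. In rotational sham its scaled log2 signal was -1.25, -1.0 and -1.25, and in rotational trauma it was -0.13, -0.85 and -0.62. In percussion sham it was -1.80, -1.52, -2.11 and -2.61, and in percussion trauma -0.29, -0.93 and -1.20. It was the only one of the 9 members whose trauma arrays all lay above the sham arrays of their model on both slides.

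The difference of Lgals3 was 0.64 (SE 0.29, limma adjusted p 0.731) in rotational and 1.20 (SE 0.27, adjusted p 0.226) in percussion trauma, a 1.56-fold and a 2.30-fold higher signal. The mean of both was 0.92 (SE 0.20, limma adjusted p 0.186). In an exact two-sided permutation test over the 700 ways to relabel arrays within the slides, Lgals3 reached p = 0.00143, the smallest value these relabellings can give and not adjusted for the number of genes. With the place of an array along its line as a factor the rotational difference of Lgals3 was 0.36. The line itself cannot be fitted as a factor, since trauma and sham lay in different lines on each slide. The difference between the models, 0.57 (SE 0.40, limma adjusted p 0.736), was within 2 SE.

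Gpnmb encodes a membrane glycoprotein of lysosomes and phagosomes that lipid-loaded macrophages and microglia express strongly. In percussion sham its scaled log2 signal was -2.36, -2.69, -2.56 and -2.48, and in percussion trauma -1.80, -1.76 and -1.99. These groups did not overlap, and the difference was 0.67 (SE 0.18, limma adjusted p 0.253). In rotational sham it was -2.04, -2.18 and -2.04, and in rotational trauma -1.20, -2.08 and -2.04. There only 1 trauma array, number 1, stood above the sham arrays, and the other 2 lay within their range.

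The rotational difference of Gpnmb was 0.31 (SE 0.20, limma adjusted p 0.85), and without trauma array 1 it was 0.02. The mean of both models was 0.49 (SE 0.13, limma adjusted p 0.278), with an exact permutation p of 0.00857 within the slides, not adjusted for the number of genes.

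Spp1 encodes osteopontin, a secreted protein that binds integrins and CD44. Its scaled log2 signal was -4.70, -6.14 and -5.51 in rotational sham and -4.41, -6.10 and -1.98 in rotational trauma, and in each of these groups 2 of 3 arrays were well above background. In percussion sham it was -1.18, -2.19, -3.68 and -1.67, and in percussion trauma -0.80, -2.29 and -1.65. The groups overlapped in both models and single arrays of a group lay up to several log2 units apart. The difference of Spp1 was 1.29 (SE 0.92, limma adjusted p 0.887) in rotational and 0.60 (SE 0.86, adjusted p 0.831) in percussion trauma. With single arrays left out the rotational difference ran from 0.19, without trauma array 3, to 2.25, without trauma array 2. The percussion difference ran from 0.10, without sham array 3, to 0.96, without trauma array 2.

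Cst7 encodes cystatin F, an inhibitor of lysosomal cysteine proteases and of the cathepsin C that activates other proteases. Its signal lay between -4.02 and -3.44 on all 13 arrays, and the groups overlapped in both models. Its differences were -0.03 (SE 0.17) in rotational and -0.07 (SE 0.16) in percussion trauma, each smaller than its SE.

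Axl encodes a receptor kinase that recognises dying cells through the bridging proteins GAS6 and PROS1. Its tested probe read -5.40, -5.08 and -5.21 in rotational sham and -5.19, -5.59 and -5.50 in rotational trauma, where 2 of 3 arrays were well above background. In percussion trauma it read -5.02, -5.19 and -5.51, all well above background, and in percussion sham -5.81, -5.73, -5.51 and -5.53, on 0 of 4 arrays well above background. The percussion groups did not overlap, though the nearest arrays were equal at 2 decimals.

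Since Axl was not well above background in percussion sham, the comparison is given as a bound, at which percussion trauma was 1.30-fold higher. This bound was not tested and is no confidence limit. A bound sets the mean of the bright group against, per array, the higher of the dim probe's signal and the lowest signal well above background. The measured difference of Axl was 0.40 (SE 0.14, limma adjusted p 0.338) in percussion and -0.20 (SE 0.15, adjusted p 0.906) in rotational trauma. Under normexp background correction the percussion difference of Axl was 0.17 and no longer under an unadjusted p of 0.05. The dim probe of Axl was well above background on 1 of 13 arrays and was not tested.

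Itgax encodes the integrin CD11c, found on dendritic cells and on microglia that have taken up the phagocytic state. Its probe was not well above background on any of the 13 arrays, and on 12 of them at least 1 of its 2 spots held a surrogate value that the scanner software puts in place of a signal too low to report. Its value was -8.75, -8.71 and -8.62 in rotational sham, -7.68, -7.72 and -7.04 in rotational trauma, -7.62, -7.77, -7.62 and -7.86 in percussion sham, and -8.52, -8.39 and -8.63 in percussion trauma. The higher values were those of line 2 on both slides, the direction of 70.0% of the dim probes, so no order of trauma and sham is read from them.

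**Figure D2:**
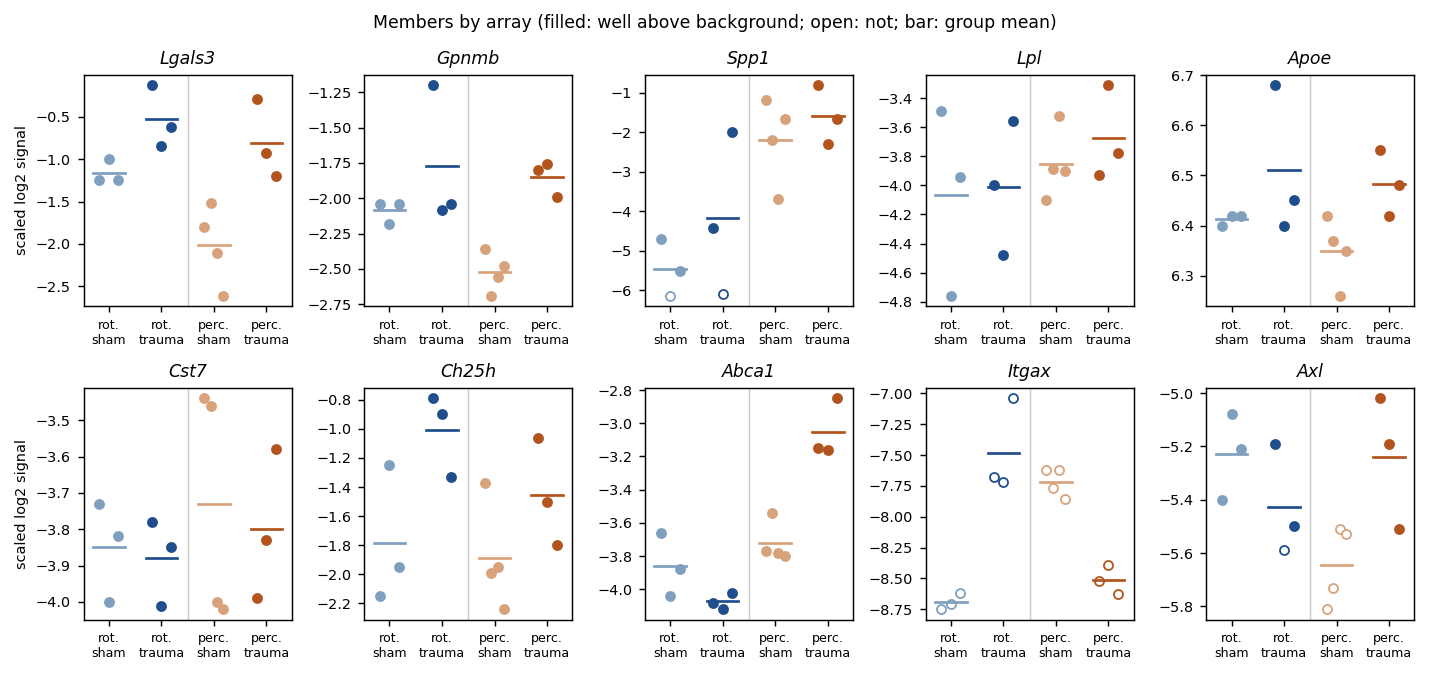
Scaled log2 signal (y axis, a range of its own in each panel) of the 10 members on the 13 arrays, by group; points are arrays, filled where all spots were well above background, and bars are group means. Lgals3 is the only tested member whose trauma points all lie above the sham points in both models, and the points of Itgax are all open.

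Apoe encodes apolipoprotein E, the main carrier of cholesterol between brain cells. It was among the bright probes, with 6.40, 6.42 and 6.42 in rotational sham and 6.68, 6.40 and 6.45 in rotational trauma. In percussion sham it was 6.42, 6.37, 6.26 and 6.35, and in percussion trauma 6.55, 6.42 and 6.48, with no overlap though the nearest arrays were equal at 2 decimals. The differences were small, 0.10 (SE 0.08, limma adjusted p 0.917) in rotational and 0.13 (SE 0.07, adjusted p 0.519) in percussion trauma. The rotational difference rested on trauma array 1, without which it was 0.0125.

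Abca1 encodes the transporter that loads cholesterol onto apolipoprotein E. In percussion sham its scaled log2 signal was -3.77, -3.54, -3.78 and -3.80, and in percussion trauma -3.15, -3.16 and -2.85. In rotational sham it was -3.66, -4.04 and -3.88, and in rotational trauma -4.08, -4.12 and -4.02. The percussion groups did not overlap, with trauma higher, and in the rotational model 2 of 3 trauma arrays lay below all sham arrays while the other lay just above the lowest of them.

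The difference of Abca1 was 0.67 (SE 0.11, limma adjusted p 0.172) in percussion and -0.21 (SE 0.11, adjusted p 0.797) in rotational trauma. The difference between the models was 0.88 (SE 0.16, limma adjusted p 0.153), the smallest adjusted p of the members in that comparison. Abca1 and Axl were both higher in line 1 on both slides, and for both the effect of the line and a difference between the models cannot be told apart. Over the genes tested, 31.7% were higher in line 1 on both slides and 18.8% in line 2 on both. Most dim probes went the other way, with 70.0% brighter in line 2 on both slides. Axl differed between the models by 0.60 (SE 0.20, limma adjusted p 0.449). In the mean of both models Abca1 stood at 0.23 (SE 0.08, limma adjusted p 0.393) and Axl at 0.10 (SE 0.10, adjusted p 0.839). For the mean of Abca1 the exact permutation p within the slides was 0.163, not adjusted for the number of genes.

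Lpl encodes lipoprotein lipase, which frees fatty acids from triglycerides. Its signal ran from -4.76 to -3.49 in rotational sham, from -4.48 to -3.56 in rotational trauma, from -4.10 to -3.52 in percussion sham and from -3.93 to -3.31 in percussion trauma, and the groups overlapped in both models. Its differences were 0.05 (SE 0.32) and 0.18 (SE 0.30), each smaller than its SE.

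Ch25h encodes cholesterol 25-hydroxylase, which makes 25-hydroxycholesterol, an activator of liver X receptors and the precursor of the ligand of GPR183. In rotational sham it read -2.15, -1.25 and -1.95, and in rotational trauma -0.79, -0.90 and -1.33. In percussion sham it read -1.37, -1.99, -1.95 and -2.24, and in percussion trauma -1.06, -1.50 and -1.80. Of the trauma arrays, 2 of 3 in rotational and 1 of 3 in percussion trauma lay above all sham arrays of their model. The difference of Ch25h was 0.77 (SE 0.28, limma adjusted p 0.60) in rotational and 0.43 (SE 0.26, adjusted p 0.555) in percussion trauma. It was the 1 member at an unadjusted p under 0.05 in rotational trauma, a count that was 0 without sham array 1, sham array 3 or trauma array 1 of that model and 3 without its trauma array 2. Over both models the mean of Ch25h was 0.60 (SE 0.19, limma adjusted p 0.352). Its exact permutation p within the slides was 0.0214, not adjusted for the number of genes.

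The start regions of Gpnmb and Abca1 are shown because both were higher in percussion trauma with no overlap, while in rotational trauma they stood on opposite sides of 0. The same holds for Apoe and Axl, whose start regions are not shown. Whether the sequences have a part in the differences was not tested. The sequences are the 250 bases before the RefSeq start, from the rat assembly GRCr8, 5′ to 3′ on the strand of the gene, with the motifs found in capitals. RefSeq entries were matched by symbol for 8 of 10 members, and the table held none for Lgals3 and Lpl.
Gpnmb at chr4:79340878-79341127, plus strand: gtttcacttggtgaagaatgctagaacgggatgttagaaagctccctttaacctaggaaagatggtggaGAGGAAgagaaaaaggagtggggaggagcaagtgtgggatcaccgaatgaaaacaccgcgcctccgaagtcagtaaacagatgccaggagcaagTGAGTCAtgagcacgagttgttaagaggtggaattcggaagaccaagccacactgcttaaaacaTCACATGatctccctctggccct
Abca1 at chr5:72596474-72596723, minus strand: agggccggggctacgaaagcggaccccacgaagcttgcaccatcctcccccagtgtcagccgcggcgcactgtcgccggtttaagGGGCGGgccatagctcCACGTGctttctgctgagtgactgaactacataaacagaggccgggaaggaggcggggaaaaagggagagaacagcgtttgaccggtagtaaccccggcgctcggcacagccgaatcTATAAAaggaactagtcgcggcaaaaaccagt

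The motifs were searched on both strands of 300 bases, from 250 before the start to 50 after it. In Gpnmb the capitals mark GAGGAA (a core bound by PU.1, a factor of macrophages), TGAGTCA (AP-1) and TCACATG (an M-box, bound by MITF and its relatives). TCACATG occurs in 3.89% of 33469 promoters of the table, TGACTCA or TGAGTCA in 4.63%, and GAGGAA in 27.6%. In Abca1 the capitals mark GGGCGG (a GC box, searched as CCGCCC, in 33.1% of promoters), CACGTG (an E-box, 6.42%) and TATAAA (14.2%). The half-site of nuclear receptors, AGGTCA, is in 16.2% of promoters and was in neither window. Its direct repeat with 4 bases between was in no member's window. Only 0.006% of promoters hold that exact repeat, so its absence does not set the members apart. Variants of these letters were not searched, so whether a liver X receptor site is present was not tested. A match describes letters, and no match says only that these letters are not in this window.

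The other genes of the phagocytic program, 26 genes led by Trem2 and Tyrobp, had 24 measured members. Of these, 17 were higher in rotational and 22 in percussion trauma, where 39.8% and 52.7% of all genes were above 0. Their medians were 0.05 and 0.22, and 0 passed the adjusted threshold in limma. Trem2 itself stood at -0.04 in rotational and 0.02 in percussion trauma and Tyrobp at 0.05 and 0.08, each smaller than its SE. At an unadjusted p under 0.05, 2 were higher in rotational and 10 in percussion trauma, where 2.85% and 7.52% of all genes were. The 4 with the smallest p for the mean of both models were Plin2, which coats lipid droplets (0.34, SE 0.09, limma adjusted p 0.227), Ctsk, a lysosomal protease (0.43, SE 0.11, adjusted p 0.233), Lyz2, the lysozyme of myeloid cells (0.36, SE 0.10, adjusted p 0.266), and Cd68, a lysosomal membrane protein of phagocytes (0.46, SE 0.14, adjusted p 0.342). In percussion trauma all 3 trauma arrays lay above all sham arrays for each of these 4, where 5.9% of all genes did so. In rotational trauma they did so for Lyz2, where 4.86% of all genes did. These 4 were picked by their p in the same data, so their separation is no further evidence.

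Of 17 genes of liver X receptor response and sterol export, 16 were measured, and 13 were higher in rotational and 11 in percussion trauma (medians 0.11 and 0.06), with 0 passing in limma and 1 and 2 higher at an unadjusted p under 0.05. Over all genes 39.8% and 52.7% were above 0, and 2.85% and 7.52% were higher at that threshold. Nr1h3, which encodes liver X receptor alpha, had a mean over both models of 0.43 (SE 0.11, limma adjusted p 0.249). The other 3 of smallest p were Mylip, a ubiquitin ligase (0.18), Rxra, the partner of nuclear receptors (0.31), and Srebf1, a regulator of fatty acid synthesis (0.14), with adjusted p from 0.343 to 0.587.

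Genes of cholesterol synthesis and uptake had medians below 0. Of 16 genes 15 were measured, and 12 were lower in rotational and 11 in percussion trauma, with medians of -0.08 and -0.05. Over all genes 39.8% and 52.7% were above 0, and the medians were -0.03 and 0.01. In limma 0 of the 15 passed, and 2 and 3 were lower at an unadjusted p under 0.05, where 4.01% and 3.76% of all genes were. Stard4, which moves cholesterol between membranes, stood at -0.23 in rotational and -0.22 in percussion trauma, with a mean of -0.23 (SE 0.05, limma adjusted p 0.195). Its trauma arrays all lay below every sham array on both slides, where 0.273% of all genes did so. Stard4 is named for its small p in the same data. The synthesis enzymes Mvd and Fdps stood at -0.17 and -0.12 in the mean, with limma adjusted p of 0.278 and 0.574.

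Of 22 ligands, receptors and partners of the members 19 were measured. Of these, 6 were higher in rotational and 15 in percussion trauma (medians -0.05 and 0.17), where 39.8% and 52.7% of all genes were above 0. In limma 0 of the 19 passed, and 3 and 6 were higher at an unadjusted p under 0.05, against 2.85% and 7.52% of all genes. In percussion trauma 1 was lower at that threshold, against 3.76% of all genes: Gpihbp1, which anchors lipoprotein lipase to capillaries, at -0.51 (SE 0.23, limma adjusted p 0.439), named here after its value was seen. Lgals3bp, a glycoprotein that galectin-3 binds, had a mean of 0.49 (SE 0.11) and Lgals1, galectin-1, of 0.45 (SE 0.10), both at a limma adjusted p of 0.186. Lgals1 stood at 0.72 in rotational and 0.17 in percussion trauma. Ctsc, the cathepsin that cystatin F inhibits, stood at 0.54 and 0.73, with a mean of 0.63 (SE 0.16, limma adjusted p 0.236). Gpr183, the receptor of the sterol made from the product of CH25H, stood at -0.07 in rotational and 1.02 in percussion trauma (mean 0.48, SE 0.20, limma adjusted p 0.521).

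**Figure D3:**
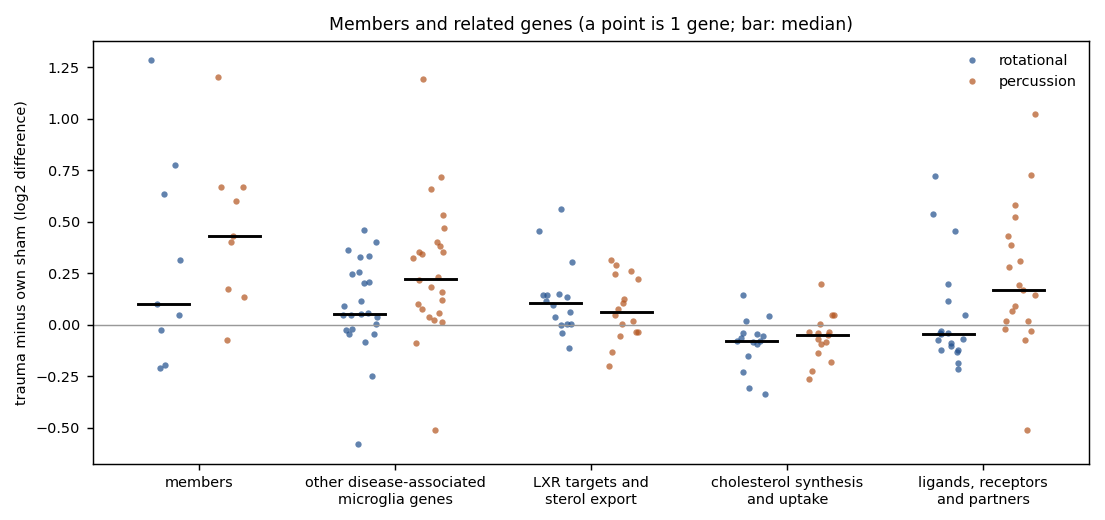
Trauma minus own sham (log2 difference, y axis) of the tested members and of the measured genes of the 4 related lists (x axis), in rotational and percussion trauma; a point is 1 gene and bars are medians. The members' median is 0.10 in rotational and 0.43 in percussion trauma, and that of cholesterol synthesis and uptake is -0.08 and -0.05.

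Markers of other cell types were read on the same arrays. Over all genes 39.8% were above 0 in rotational and 52.7% in percussion trauma, and 2.85% and 7.52% were higher at an unadjusted p under 0.05. All 12 markers of meninges and fibroblasts were higher in trauma in both models, with medians of 1.04 in rotational and 1.27 in percussion trauma. In limma 0 of the 12 passed, while 7 and 12 were higher at an unadjusted p under 0.05. Their summed level ran from 37.2 to 73.0 in rotational sham against 84.1 to 131 in rotational trauma, and from 41.6 to 68.1 in percussion sham against 87.3 to 160 in percussion trauma, in multiples of the upper quartile of the array. The groups of both models did not overlap in this sum. Of 12 markers of border macrophages and monocytes 10 were measured, and 9 were higher in each model (medians 0.31 and 0.42, summed level 8.13 to 8.36 in rotational sham, 8.24 to 12.96 in rotational trauma, 6.24 to 7.35 in percussion sham and 7.66 to 9.56 in percussion trauma). At an unadjusted p under 0.05, 3 and 5 of these 10 were higher and 0 lower. The defining markers Mrc1 and Ccr2 of the border macrophage and monocyte list did not pass the filter. Lyz2 stands both in that list and among the genes of the phagocytic program.

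Of 16 microglia markers 15 were measured, all but Siglech, with medians of 0.05 in rotational and 0.11 in percussion trauma. At an unadjusted p under 0.05, 1 of the 15 was higher and 1 lower in rotational trauma, and 2 were higher and 0 lower in percussion trauma. Their summed level was 34.1 to 36.9 in rotational sham and 31.8 to 44.0 in rotational trauma, and 33.6 to 36.6 in percussion sham and 35.8 to 37.5 in percussion trauma, so the groups overlapped in both models. Of 10 markers of dendritic and T cells 2 passed the filter, and Cd3e was not among them. The 10 neuron markers had medians of -0.03 and -0.02, and all 10 were measured in this cortex, as were all 10 astrocyte markers (medians -0.04 and 0.09). At an unadjusted p under 0.05, 0 neuron markers were higher and 0 and 2 lower. At the same threshold 1 and 2 astrocyte markers were higher and 0 lower. All 10 endothelial and mural markers were measured, and 7 were higher in rotational and 10 in percussion trauma, with medians of 0.18 and 0.27. In limma 0 of these passed, and 0 and 4 were higher at an unadjusted p under 0.05, against 2.85% and 7.52% of all genes. Their summed level was 8.41 to 8.91 in rotational sham and 8.11 to 11.2 in rotational trauma, which overlap, and 7.55 to 8.87 in percussion sham and 9.19 to 11.5 in percussion trauma, which do not. The 8 oligodendrocyte markers had medians of 0.39 and -0.06, with 2 and 0 higher and 0 lower at an unadjusted p under 0.05.

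Across the 13 arrays, centred within their slide, Lgals3 correlated with the mean of the meninges and fibroblast markers at r = 0.89, and centred within their group, which removes the trauma effect, at r = 0.69. With the endothelial and mural markers Lgals3 correlated at 0.88 and 0.79, and with the neuron markers at -0.82 and -0.62. Gpnmb correlated at 0.83 and 0.58 with the meninges and fibroblast markers and at 0.85 and 0.72 with the endothelial and mural markers. Abca1 correlated at 0.42 and -0.02 with the meninges and fibroblast markers and at 0.80 and 0.50 with the astrocyte markers, its highest value within slides over the lists. Apoe correlated with the microglia markers at 0.89 and 0.88 and with the endothelial and mural markers at 0.88 and 0.82. Lgals3 correlated with the microglia markers at 0.71 and 0.63, and Gpnmb at 0.77 and 0.71. With the border macrophage and monocyte markers the values were 0.77 and 0.60 for Lgals3 and 0.75 and 0.56 for Gpnmb. These are descriptions over arrays that share slide, scaling and tissue. What part the marker levels have in the differences of the members was not tested.

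**Figure D4:**
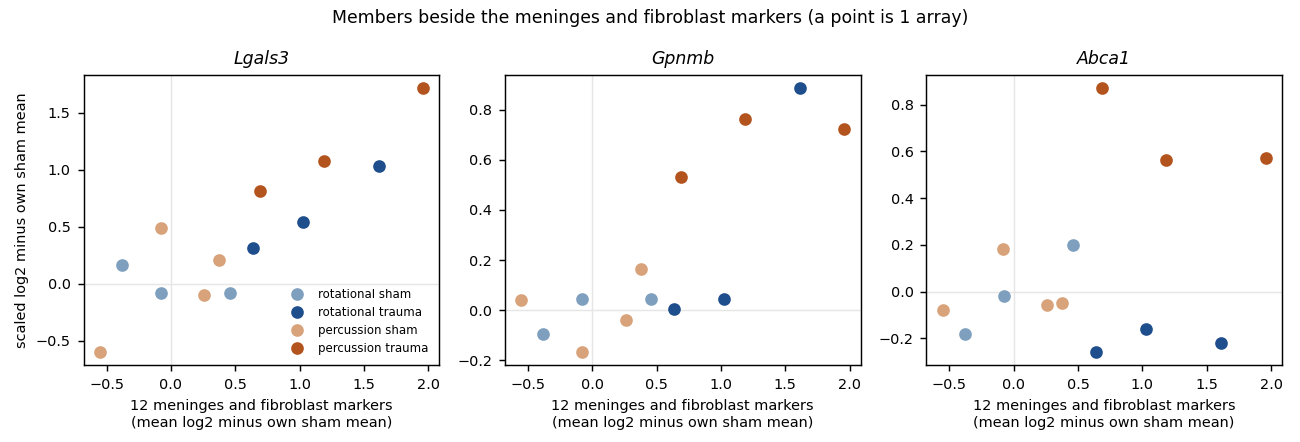
Scaled log2 signal of Lgals3, Gpnmb and Abca1 minus the mean of the own sham group (y axis) against the mean of 12 meninges and fibroblast markers on the same scale (x axis); a point is 1 array of the 13. Lgals3 is high on the arrays where these markers are high (r = 0.89 within slides), and the 3 percussion trauma arrays of Abca1 lie apart from the 3 of rotational trauma.

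The genes most like each member over the 13 arrays, centred within the slide, were taken from the 2 of highest Pearson r among 12537 genes with a symbol. For Lgals3 they were C1qtnf7 (r = 0.96) and Sdc1 (0.93), and for Gpnmb Zfp410 (0.96) and Sdc1 (0.92). Ch25h was closest to Itga8 (0.95) and Adm (0.89), Apoe to Tcirg1 (0.94) and Ptprc (0.93), and Spp1 to Ptpro (0.98) and Cdhr1 (0.96). Abca1 was closest to Itch (0.97) and Cdk14 (0.94), and Axl to Lgmn (0.96) and Grin2d (0.92). Wipf3 (0.91) is named for Lpl, and Cst7 was closest to Spata1 (0.92) and Lin52 (0.92). With 13 arrays and this many genes, high values arise among the best of the ranking, and they are given without a test. Among the members themselves, Gpnmb and Apoe were the most alike (r = 0.87 within slides and 0.78 within groups), followed by Lgals3 and Apoe (0.79 and 0.62) and Lgals3 and Gpnmb (0.77 and 0.36).

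Over the other ways of processing, arrays left out included, the difference of Lgals3 ran from 0.36 to 0.80 in rotational and from 0.94 to 1.40 in percussion trauma. Gpnmb ran from 0.02 to 0.47 and from 0.61 to 0.74, and Ch25h from 0.53 to 1.04 and from 0.24 to 0.61. Abca1 ran from -0.30 to -0.11 in rotational and from 0.51 to 0.73 in percussion trauma, so each of these 4 genes kept its direction in both models in all settings run. Spp1, Apoe and Axl also kept theirs in all settings that held them, so this is not particular to the 4.

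**Figure D5:**
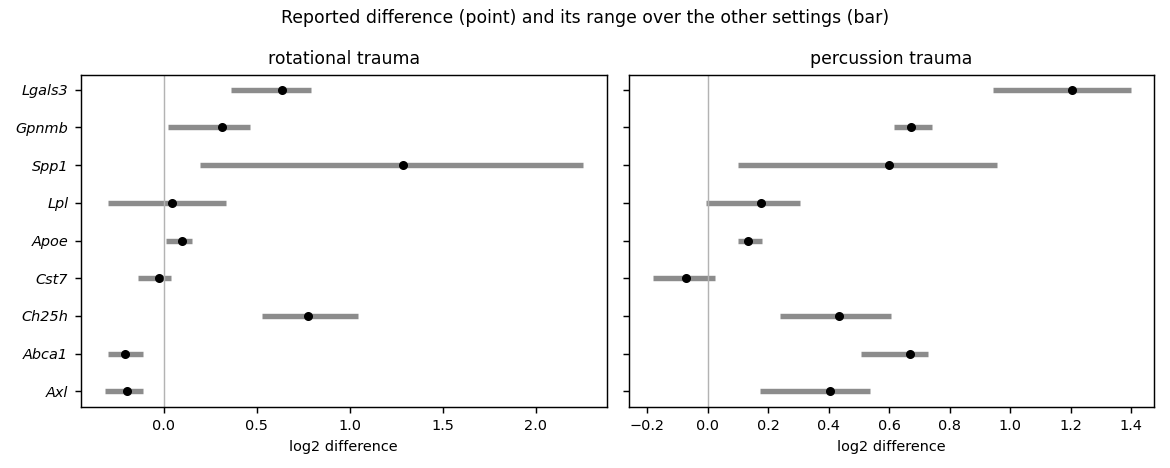
Log2 difference of each tested member in rotational (left) and percussion (right) trauma as reported (points), with the lowest to highest value over the other processing settings (bars). Lgals3, Gpnmb, Spp1, Apoe and Ch25h stay above 0 in both models over all settings that held them, and the bars of Lpl and Cst7 cross 0 in both.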

How the data were processed

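The authors scanned the arrays with Agilent Feature Extraction 10.5.1.1, per the file headers, and deposited each spot's processed signal as an intensity, background-subtracted and not scaled between arrays. The authors also deposited a table of log2 values, used here as an alternative. The log2 intensity was scaled by each array's 75th percentile over 58717 non-control spots. Outlier spots were set missing, spots averaged by probe (30367 probes), and 20004 probes kept. A gene took its probe of highest mean. limma 3.58.1 in R 4.3.3 fitted 1 mean per group over 13 arrays (9 residual degrees of freedom). Probe names came from the array files, updated through a GRCr8 gene table. The members and gene lists were chosen with earlier results of these data known.

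The rule that all spots of a probe must be well above background replaced a rule of at least 50% of them after results under both had been seen. Named are all 10 members and, from each list, the genes that passed (none) and up to 4 of smallest unadjusted p for the mean. Of the genes these rules name, 2 are not reported here. The labels number the samples of a group as replicates, and p-values measure the spread between these samples. The number of arrays limits the precision. In data simulated with 200 of 17238 genes shifted, changes of log2 size 1 were recovered for 76% of genes in rotational trauma and 75% in percussion trauma. In these fits 8 and 13 unshifted genes passed as well. The simulated noise was independent between genes and held no effect of the line. With so many genes shifted the adjusted threshold is easier to reach, so these shares do not give the power of the fits reported here. Python 3.11.15 with matplotlib 3.10.9 drew the figures.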

Additional observations from a re-analysis of the deposited data

Results flagged for a closer look

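In the percussion sham group, Abca1 stood apart on array 2, at -3.54 against -3.77, -3.78 and -3.80 on the others: the gap to its nearest neighbour was 0.884 of the range of the group, above the critical value of Dixon's test for 4 values. Chance alone marks about 1 in 20 such groups. Without that array the percussion difference of Abca1 was 0.73.

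The signal of Itgax ran in opposite directions in the models, with all trauma arrays above sham in the rotational model and all below in the percussion model, so that the percussion difference minus the rotational difference was -2.01. This difference was not tested, because the probe was not well above background on any of the 13 arrays, and in both models the arrays of line 2 held the higher values.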

How the results depend on the processing

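Over 24 other settings, arrays left out counted singly, 813 of 838 values of single members kept their direction. Of these 838, 4 passed the threshold, all with no filter on dim probes: Lgals3, Gpnmb and Abca1 in percussion trauma (3 members, of 0 as reported) and Abca1 in the difference between the models (1 member; difference 0.88, adjusted p 0.00403, with 3780 of 26257 genes passing). The cause was not tested. The count of members higher in rotational trauma at an unadjusted p under 0.05, 1 as reported, was 2 under normexp background correction, quantile normalization, the deposited table, the filter on all arrays, the fit on 1 model and the replicate block, and 0 to 3 with arrays left out. Under normexp, Lpl in rotational trauma was -0.10, Axl in the mean -0.018 and Cst7 in the difference between the models 0.12; Apoe in that difference was -0.0214 under quantile normalization and -0.0238 in the deposited table. With 1 array left out, Lpl ran from -0.30 to 0.34 in rotational trauma, from -0.0062 to 0.30 in percussion trauma, from -0.063 to 0.26 in the mean and from -0.16 to 0.48 in the difference between the models. Cst7 ran from -0.10 to 0.041, from -0.18 to 0.025 and, in the difference, from -0.16 to 0.050; in that difference Apoe ran from -0.019 to 0.12 and Spp1 from -1.66 to 0.40. A rule of 50% of a probe's spots in place of all, a setting chosen after seeing the data, kept 20410 probes and changed no member's call.

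Samples share replicate numbers within a model, and deviations of same-numbered samples correlated at 0.11, 0.27 and 0.02 in the rotational and 0.28, -0.02 and -0.01 in the percussion model, so the numbers were not taken as pairs. With the number as a replicate block, 0 members passed in any comparison, and Lgals3 was 0.64 in rotational and 1.00 in percussion trauma (limma adjusted p 0.506 and 0.233).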

Other observations

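Pros1 encodes protein S, a bridging ligand through which AXL and its relatives bind dying cells. Its probe did not pass the filter as reported and was singled out after its values were seen. Under the rule of at least 50% of a probe's spots (17577 genes), Pros1 was higher by 0.63 (SE 0.24) in rotational and 0.89 (SE 0.22) in percussion trauma, with a mean of 0.76 (SE 0.16, limma adjusted p 0.188). All 3 trauma arrays lay above all sham arrays in both models. Under the filter as reported 0.557% of all genes did so, and the share under the rule of at least 50% of the spots was not computed. By that rule the tested probe of Axl was well above background on 3 of 4 percussion sham arrays, where it was on 0 of 4 by the rule of all spots.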
